A study of Mus musculus with 6 samples.

Results

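The 6 genes followed here mark naive T cells or carry them through survival and homing, and they were read in resting CD4 T cells treated with vasoactive intestinal peptide (VIP): Il7r, Ccr7, S1pr1, S1pr4, Dapl1 and Igfbp4. They were taken by name, as all non-control probes annotated to them on the arrays, where S1pr1 and S1pr4 carry their older names Edg1 and Edg6. This gave 6 of 28632 gene names and 9 of the 41174 probes, 3 for Il7r, 2 for Igfbp4 and 1 for each of the other 4 genes. The cells were CD4 T cells picked with magnetic beads from spleens of C57BL/6J mice, males and females 6 to 32 weeks old, with 5 to 10 spleens pooled for each sample. One set of 6 samples was VIP-treated and the other set of 6 was VIP untreated. Nothing else but the dye on each array differs between them in the labels, which call both resting. The sample titles call the cells splenocytes, whereas the source names say CD4 T cells. Neither the dose of VIP nor its duration is stated in the labels. Each of 6 Agilent 2-colour arrays held the VIP-treated and the untreated sample of 1 biological replicate, with VIP in the dye Cy5 on replicates 1, 3 and 5 and in Cy3 on replicates 2, 4 and 6.

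A naive T cell lives on contact with self peptides and on interleukin-7, whose receptor alpha chain is encoded by Il7r. It recirculates between blood and lymphoid organs: the chemokine receptor CCR7 helps bring it into lymph nodes, and the receptor S1PR1 lets it leave along a gradient of the lipid sphingosine 1-phosphate (S1P). Dapl1 and Igfbp4 are transcripts used as markers of naive T cells, and S1pr4 is a further lymphocyte S1P receptor. VIP is a neuropeptide whose receptors on lymphocytes raise cyclic AMP.

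The probes of the 2 genes called in the main fit are shown because the 3 Il7r probes lie at separate positions on chromosome 15. Sequences run 5′ to 3′ as deposited, with no letter in capitals. The second Il7r probe is given whole and the others by their first 30 bases. Positions are on mm9 and all 4 lie on the minus strand: chr15:9435976-9436035 for Il7r probe 1, chr15:9440943-9441002 for probe 2, chr15:9442570-9442629 for probe 3, and chromosome 11 for Ccr7, where the file lists only 26 bases of the 60-base probe (chr11:99005513-99005538). No exon annotation of mm9 was used, so exon, intron or UTR is not stated.
Il7r probe 1: atcaatcaactatgtttggatccagggaat
Il7r probe 2: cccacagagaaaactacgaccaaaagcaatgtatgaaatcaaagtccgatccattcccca
Il7r probe 3: tcaatcacgttcacaaaataagtatcatct
Ccr7: cttctagcttagagagatgtcccggagatt

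With VIP, the Il7r transcript was lower and the Ccr7 transcript slightly higher, while S1pr4, Dapl1 and Igfbp4 did not pass the test and S1pr1 could not be tested. The Ccr7 rise was not called in 7 of 11 alternatives for the processing, nor without 4 of the 6 replicates in turn. For Il7r the fall was not called in 3 of those 11, and its call held with each of the 5 measured replicates left out. Calls come from limma, fitted to the ratio within each array on the log2 scale, with the Benjamini-Hochberg adjusted p held under 0.05 over all 19225 genes tested. Of the 6 genes, 5 passed the filters on signal and dye orientation and 2 were called, against a background of 3.08% of all genes tested (593, of which 1.72% rose and 1.37% fell). By unadjusted p under 0.05 the background was 16.7% of genes. The 6 genes and the lists below were chosen with earlier results of these data known, so counts set beside these shares are not a test. These are bulk samples, so fewer cells carrying a transcript and less of it per cell cannot be told apart.

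**Figure D1:**
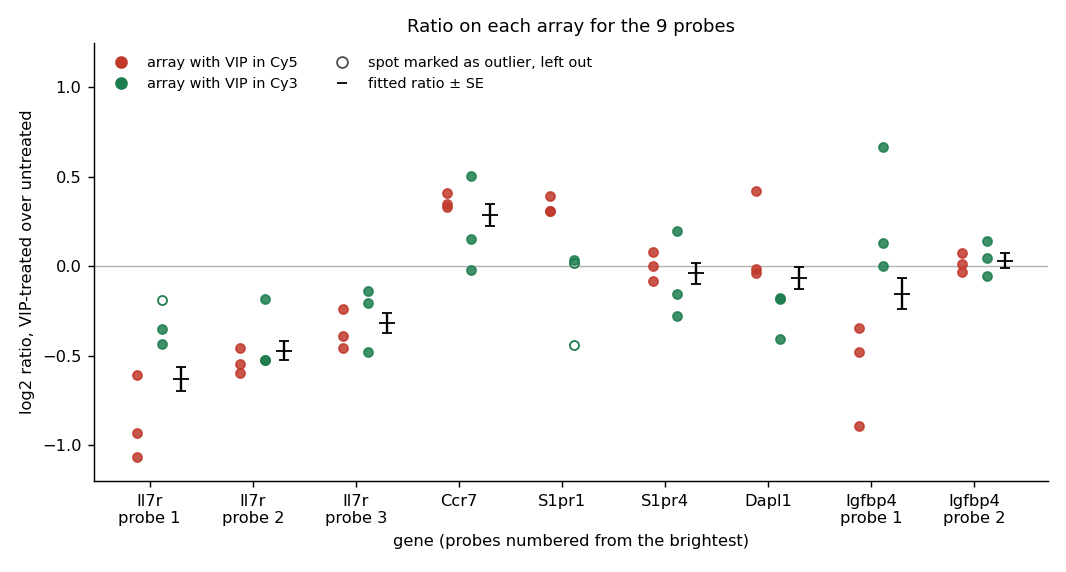
Log2 ratio (y axis, VIP-treated over untreated) on each array for the 9 probes (x axis), red with VIP in Cy5 and green with VIP in Cy3. Open circles are spots marked as outliers and left out, and black bars are the fitted ratio ± SE. All points of the 3 Il7r probes lie below 0, and 5 of 6 Ccr7 points lie above it.

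Il7r encodes the chain that makes a cell responsive to interleukin-7, and it is also part of the receptor for the cytokine TSLP. Its probe 1, which stands for the gene by the rule of highest intensity, had a log2 ratio of -0.93, -0.43, -0.60, -0.35 and -1.07 on replicates 1 to 5. The spot of replicate 6 was marked as an outlier by the scanner software and left out, at a ratio of -0.19. The normalised log2 intensity ran from 14.09 to 14.64 (median 14.25) in VIP-treated samples, against 14.60 to 15.25 (median 15.15) in untreated samples. Every one of the 5 measured pairs was lower with VIP, and the ranges of the 2 groups met at their edges. Of all genes tested, 3.14% were lower on every measured array. Most genes tested were measured on 6 arrays, so that share is not a like background for 5 pairs. The fit gave a fall by 0.63 on the log2 scale, or 1.55-fold (± 0.067 SE, n = 5, 95% interval -0.78 to -0.48, limma adjusted p = 0.00156). It was the 15th lowest ratio of 19225 genes and the 8th largest fall among called genes. The 3 arrays with VIP in Cy5 held the 3 largest falls, and the fitted dye effect of the probe was -0.24.

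Probe 2 of Il7r was measured on all 6 arrays. The log2 ratio was -0.55, -0.52, -0.45, -0.18, -0.59 and -0.52 on replicates 1 to 6. The level ran from 9.98 to 10.47 (median 10.16) with VIP, against 10.57 to 10.70 (median 10.64) without VIP. The highest VIP-treated sample, replicate 4, stayed below the lowest untreated sample, a separation seen for 48 of 27454 probes (0.175%). The fitted fall was 0.47 (± 0.053 SE, n = 6, limma adjusted p over all probes = 0.00134), with slides giving -0.54, -0.32 and -0.56. Each slide held 2 arrays, 1 of each dye orientation. On this probe the dye effect was -0.06.

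Probe 3, which the file annotates to a cDNA clone rather than to the Il7r reference transcript, was lower on 6 of 6 arrays as well. Its level was 6.93 to 7.56 in VIP-treated samples and 7.12 to 7.77 in untreated samples, so the groups overlap. The fit gave -0.32 (± 0.054 SE, n = 6, limma adjusted p over all probes = 0.0117). All 3 kept Il7r probes were thus called in the same direction, where the background is 2.88% of probes and 10 of the 1790 genes with at least 3 kept probes (0.559%). The 3 probes gave different sizes: within arrays, probe 3 stood 0.36 above probe 1 on the ratio scale (interval 0.22 to 0.51, n = 5), which did not pass after adjustment over 8195 probe pairs (limma adjusted p = 0.0985, background 0.0976%). Probe 2 stood 0.19 above probe 1 (interval 0.027 to 0.35), and this did not pass either. With a smaller background offset of 10 in place of 50, probe 3 gave -0.44, and with the scanner software's own processed signals it gave -0.61, while probe 1 gave -0.63 under both.

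**Figure D2:**
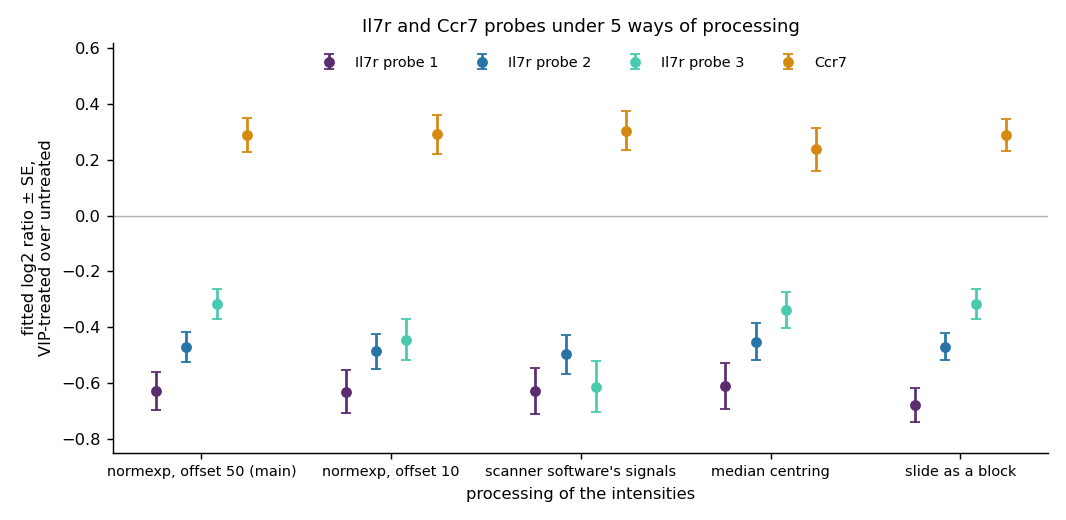
Fitted log2 ratio ± SE (y axis, VIP-treated over untreated) for the 3 Il7r probes and Ccr7 under 5 ways of processing the intensities (x axis). Il7r probe 3 moves from -0.32 with the offset of 50 to -0.61 with the scanner software's signals, whereas Ccr7 stays between 0.24 and 0.31.

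The Il7r call did not hold with the scanner software's processed signals (-0.63, limma adjusted p = 0.0782), under which 38 genes in all were called and none of the 11 other called genes of the pathway lists. It held on leaving out each of the 5 measured replicates in turn, at -0.70 to -0.58.

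Ccr7 encodes the receptor for the lymph node chemokines CCL19 and CCL21. The log2 ratio was 0.41, -0.02, 0.35, 0.51, 0.33 and 0.15 on replicates 1 to 6. The level was 15.46 to 16.21 (median 15.75) in VIP-treated samples and 15.31 to 15.86 (median 15.41) in untreated samples. Replicate 2 was the 1 pair with no rise, and the groups overlap over much of their range. The fitted rise was 0.29, or 1.22-fold (± 0.061 SE, n = 6, interval 0.15 to 0.42, limma adjusted p = 0.0322), the 160th largest of the 330 called rises. Within slides it was 0.20, 0.43 and 0.24. The call is not stable: without replicate 1, 3, 5 or 6 it gave 0.28, 0.29, 0.30 and 0.30 with limma adjusted p from 0.0696 to 0.102, and median centring gave 0.24 (adjusted p = 0.193). CCR7 is also carried by B cells. Of 9 B cell markers tested 8 had a ratio below 0 and none was called (median -0.07), their summed level being 13.54 to 14.59 with VIP and 13.76 to 14.70 without VIP on the log2 scale. Pax5 did not pass the filters. Their part in the Ccr7 result was not tested.

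**Figure D3:**
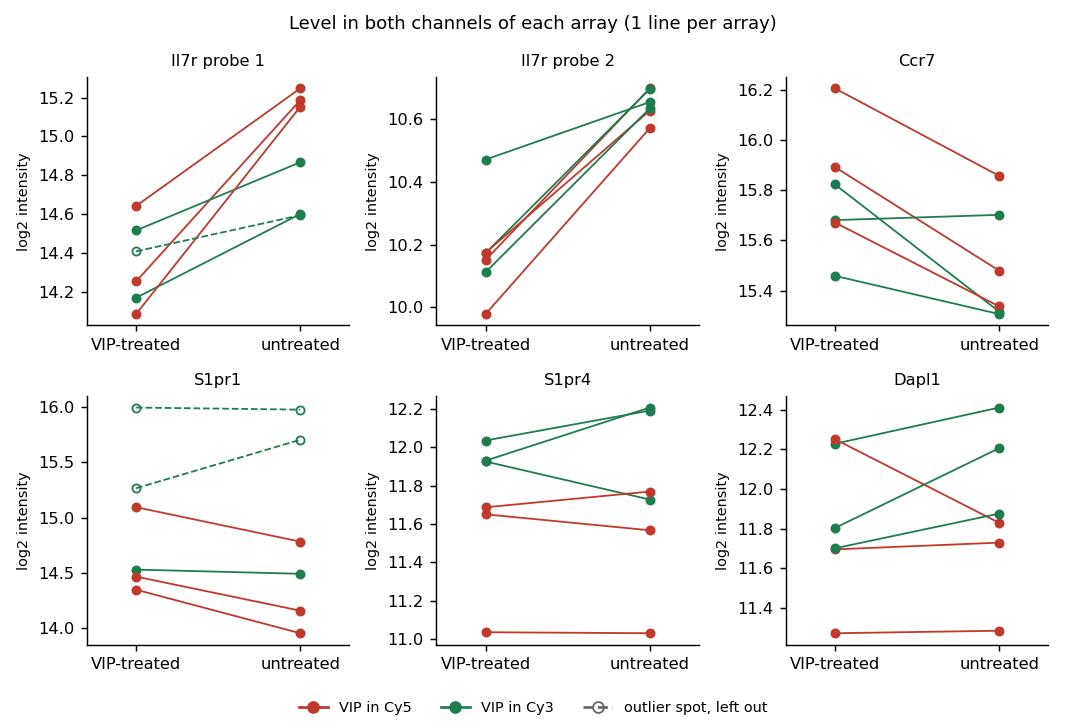
Normalised log2 intensity (y axis) in the VIP-treated (left) and untreated (right) channel of each array, joined by a line, for 6 probes. Dashed lines with open circles are outlier spots, left out. Il7r probe 2 shows 2 separate groups, at 9.98 to 10.47 with VIP and 10.57 to 10.70 without it, whereas the other panels overlap.

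S1pr1, the receptor for exit from lymphoid organs, was measured on 4 arrays. Its probe lies at chr3:115414020-115414079 on the minus strand (mm9).
S1pr1: aagatgaaaatgtgttccttttttgtcaca
The ratio was 0.31, 0.39, 0.04 and 0.31 on replicates 1, 3, 4 and 5, higher with VIP on each. Among all genes tested, 3.8% were higher with VIP on every measured array. That share is not a like background, as S1pr1 was not among the genes tested and most of those were measured on 6 arrays. The level was 14.35 to 15.09 with VIP and 13.95 to 14.78 without VIP. The spots of replicates 2 and 6, with ratios of 0.02 and -0.44, were marked as outliers, which left 1 array with VIP in Cy3, fewer than the fit required. The mean over both dye orientations was 0.19, with no test. With the 2 marked spots kept, the fit over 6 arrays gave 0.11 (limma adjusted p = 0.488). The 3 arrays with VIP in Cy5 then averaged 0.34 and the 3 with VIP in Cy3 averaged -0.13. With these spots kept, the mean S1pr1 ratio thus had opposite signs in the 2 dye orientations.

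S1pr4 is a receptor for S1P on lymphocytes and other blood cells, and its probe lies at chr10:80961501-80961560 on the minus strand. It gave 0.01, -0.28, 0.08, 0.20, -0.08 and -0.16 on replicates 1 to 6. Its level was 11.04 to 12.03 with VIP and 11.03 to 12.21 without VIP. On 3 arrays it was higher and on 3 lower, and the fitted ratio was -0.04 (± 0.060 SE, n = 6, limma adjusted p = 0.822). The interval of -0.17 to 0.09 leaves out a change the size of the Il7r fall and the Ccr7 rise. A p that misses the threshold does not show that the level is equal.

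Dapl1 is a marker of naive T cells, with its probe at chr2:59342824-59342883 on the plus strand. It gave -0.03, -0.18, 0.42, -0.18, -0.01 and -0.40 on replicates 1 to 6. The level was 11.27 to 12.25 in VIP-treated samples and 11.28 to 12.41 in untreated samples. Before the dye term, replicate 3 was higher with VIP and the other 5 were lower. The dye effect of the probe, 0.19, was larger in size than the fitted ratio of -0.06 (± 0.064 SE, interval -0.21 to 0.08, limma adjusted p = 0.689). With the dye effect removed, replicates 1 to 6 gave -0.22, 0.007, 0.23, 0.014, -0.20 and -0.21, so the signs were mixed. Leaving out replicate 3 gave -0.14, leaving out replicate 1 gave -0.02 and leaving out replicate 5 or 6 gave -0.03, with no call in any of these.

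Igfbp4, which encodes a binding protein of insulin-like growth factors, gave -0.48, 0.13, -0.89, 0.00, -0.35 and 0.67 on replicates 1 to 6 at its probe 1 (chr11:98913334-98913393, plus strand). The level was 9.67 to 11.52 with VIP and 9.57 to 11.37 without VIP. The 3 arrays with VIP in Cy5 were the 3 negative ones, and the dye effect of -0.42 exceeded the fitted ratio of -0.15 (± 0.089 SE, limma adjusted p = 0.441). It was not called in any leave-out, and the value moved to -0.07 without replicate 3, -0.09 without replicate 4 and -0.25 without replicate 6, or to -0.06 as the mean of both probes. Probe 2 (chr11:98909591-98909650) gave 0.03 (± 0.043 SE, limma adjusted p over all probes = 0.787), with ratios from -0.05 to 0.14. This probe is dim (mean log2 intensity 7.02), and its value changed with the background setting. It gave 0.05 with an offset of 10 and 0.17 (± 0.071 SE) with the scanner software's processed signals, not called in either. Igfbp4 and Ccr7 lie near each other on mouse chromosome 11, with Tns4 between them in the RefSeq order, and Tns4 gave 0.09 (limma adjusted p = 0.426).

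Genes around the interleukin-7 receptor were read from a list of 21, of which 20 were tested. Of these 2 rose and 2 fell, against 1.72% and 1.37% of all genes tested, and the median log2 ratio was 0.02, against -0.0047 over all genes tested. By unadjusted p under 0.05 there were 7, against 16.7% of all genes tested. Beside Il7r, Bcl2 fell by 0.22 (± 0.048 SE, n = 5, limma adjusted p = 0.0434). Its product protects lymphocytes from apoptosis, but the ratio before the dye term was below 0 on 2 of 5 arrays and above it on 3. Without the dye term, or with slide as a block (-0.22, adjusted p = 0.0696), Bcl2 was not called, and its other probes gave -0.10 and -0.15, not called. Bcl2l11, which encodes the pro-apoptotic BIM, rose by 0.29 (± 0.042 SE, adjusted p = 0.00491) on 6 of 6 arrays and its other probe gave 0.22. Pim1, a kinase gene induced by STAT5, rose by 0.23 (± 0.039 SE, adjusted p = 0.0117) on 6 of 6 arrays, and its other probe gave 0.17, not called (adjusted p over all probes = 0.252). Pim1 was not called without replicate 5 (0.22, adjusted p = 0.0668), and the Bcl2 call was lost (-0.25 to -0.19) on leaving out any of the 5 replicates that had a value.

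The partner chain and signalling genes were not called. Il2rg, the shared gamma chain, gave 0.22 (adjusted p = 0.137), Jak1 0.02, Jak3 -0.06, Stat5a 0.10 and Stat5b 0.12. Among factors known to act on Il7r, Foxo1 gave -0.06, Runx1 -0.01, Gabpa 0.02, Gfi1 0.09 and Ets1 0.20 (adjusted p = 0.0537). Of 2 other Ets1 probes 1 gave 0.27 (limma adjusted p over all probes = 0.0152) and the other gave 0.18, not called (adjusted p = 0.0847). The ETS family members ETS1 and GABP alpha bind a GGAA core, and the RefSeq promoter of Il7r (GRCm38.p6, chr15:9529877-9530126, minus strand, 250 bases before the start) holds 1 match to a longer ETS motif, in capitals. The promoter table held 4 of the 6 genes.
Il7r promoter: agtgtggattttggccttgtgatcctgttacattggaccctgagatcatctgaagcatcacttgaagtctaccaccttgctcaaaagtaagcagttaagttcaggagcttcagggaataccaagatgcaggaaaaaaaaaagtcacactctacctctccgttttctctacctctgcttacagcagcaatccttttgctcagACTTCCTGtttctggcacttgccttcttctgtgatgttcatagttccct
The ETS letters searched were CAGGAAGT on both strands, found in 2.69% of 32851 promoters of the same length, and ACTTCCTG is its other strand. The cyclic AMP element TGACGTCA was in 1.55% of promoters and in none of the 4. Its shorter form TGACG, contained in it, was in 17.8% and in that of Dapl1. The FOXO letters GTAAACA were in 3.17% and also in that of Dapl1. These are matches of letters, not sites.

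The S1P list had 17 of 20 members tested. Of these 2 rose and none fell (5 had an unadjusted p under 0.05), against 1.72%, 1.37% and 16.7% of all genes tested. The median was -0.03, against -0.0047 over all genes. S1pr2, a receptor that inhibits migration, rose by 0.22 (± 0.042 SE, limma adjusted p = 0.0187) on 6 of 6 arrays, although its other probe gave 0.04 and it was not called without replicate 3 (0.19), 5 (0.23) or 6 (0.22). Arrb1, an arrestin gene for G protein-coupled receptors, rose by 0.28 (± 0.044 SE, adjusted p = 0.00788), and its other probe gave 0.15, not called (adjusted p over all probes = 0.109). Klf2, the factor that drives S1pr1 in naive cells, gave -0.27 with adjusted p = 0.130 (n = 5). Its ratio before the dye term was above 0 on 2 of the 5 arrays. The other Klf2 probe gave -0.21 (n = 4, limma adjusted p over all probes = 0.254), not called. Cd69, whose product takes S1PR1 off the surface, gave -0.08.

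For lymph node homing, 21 of 22 genes were tested, 2 rose and 1 fell, against 1.72% and 1.37% of all genes, with a median of 0.0027 against -0.0047 over all genes. By unadjusted p under 0.05 there were 6, against 16.7% of all genes. The rises were Ccr7 and Chst2, a sulfotransferase gene, by 0.43 (± 0.065 SE, limma adjusted p = 0.00696), with its other probe at 0.27. The fall was Dock2, a migration regulator acting on Rac, by 0.26 (± 0.046 SE, adjusted p = 0.0142), on 5 of 6, with its other probe at -0.23. Dock2 was not called without replicate 1 (-0.23) or 5 (-0.26).

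Of 24 naive state genes, 22 were tested, 3 fell and none rose, against 1.37% and 1.72% of all genes, with a median of -0.06 against -0.0047 over all genes. By unadjusted p under 0.05 there were 9, against 16.7% of all genes, and 16 ratios were below 0 and 6 above. Those called were Il6ra (-0.32 ± 0.050 SE, adjusted p = 0.00803), which encodes the interleukin-6 receptor, Nsg2 (-0.28 ± 0.042 SE, adjusted p = 0.00695) and the actinin gene Actn1 (-0.24 ± 0.040 SE, adjusted p = 0.0107). All 3 were lower on 6 of 6 arrays, and the other probe of Il6ra gave -0.44. Actn1 was not called without replicate 1 (-0.23, adjusted p = 0.0535). The naive factors Lef1 and Tcf7 gave -0.04 and -0.10, not called. The lowest and highest ratios of the list were Btla (-0.38, adjusted p = 0.121) and Cd27 (0.19, adjusted p = 0.164), not called by limma. In the activated and memory list none of 19 tested was called by limma, 1 had an unadjusted p under 0.05, and the median was 0.03. Over all genes tested 3.08% were called and 16.7% had an unadjusted p under 0.05. The lowest p belonged to Tnfrsf4 (0.18, adjusted p = 0.131), followed by Klrg1 (0.10, adjusted p = 0.386). A dimmer Cd44 probe gave 0.24 (limma adjusted p over all probes = 0.0441), while the probe that stands for Cd44 gave -0.01. Of the IGF family, 9 of 12 were tested, 2 had an unadjusted p under 0.05 and 1 was called, against 16.7% and 3.08% of all genes. The called gene was the growth factor receptor gene Igf1r, which fell by 0.32 (± 0.058 SE, adjusted p = 0.0158) but was not called without replicate 5 (-0.32, adjusted p = 0.0608). Of its other 3 probes 1 was called (-0.22) and 2 were not (-0.12 and -0.17).

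**Figure D4:**
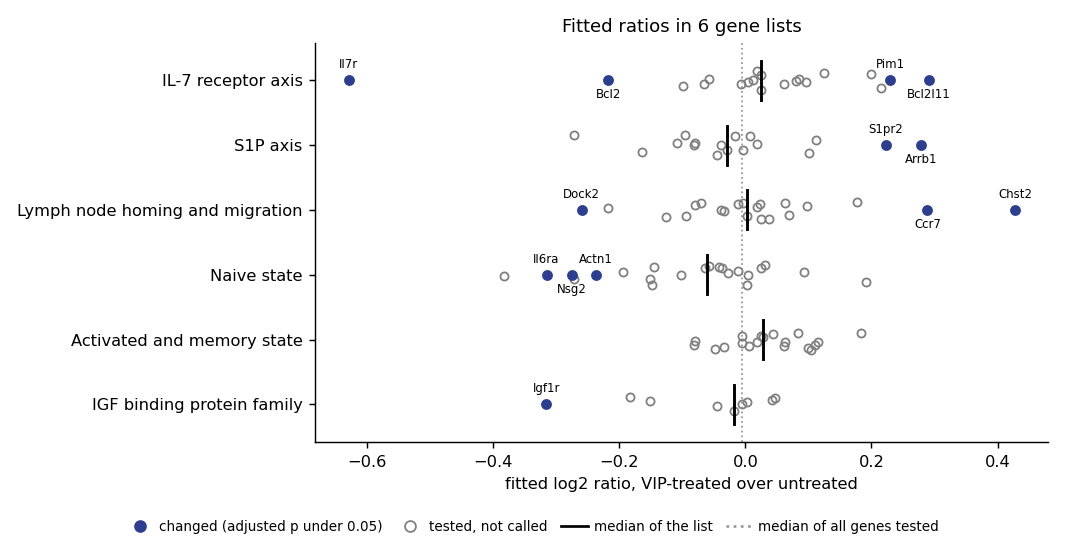
Fitted log2 ratio (x axis, VIP-treated over untreated) for the tested genes of 6 lists (rows). Filled points were called, open ones were not, thick bars are list medians and the dotted line is the median of all genes tested. The Naive state row has 3 called falls and a median of -0.06, and the Activated and memory state row has no called gene.

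CD4 T cell markers were read for the labelled cell type, of which 9 of 10 were tested and none was called (median 0.0042, Cd2 did not pass the filters). A ratio cannot show which cells were present, as a mix equal in both channels gives no change. The summed intensity of the 7 markers measured on all arrays, put on the log2 scale after summing, was 17.57 to 18.00 with VIP and 17.55 to 18.19 without VIP. Among the CD4 T cell markers, Cd3d (-0.13) and Cd3g (-0.15), which encode chains of the T cell receptor complex, had an unadjusted p under 0.05. Both were lower with VIP on 6 of 6 arrays (limma adjusted p = 0.116 and 0.103). The list was split, with 5 ratios above 0 and 4 below. Cd3e, which encodes another chain of that complex, gave 0.03 and Cd4 gave 0.01. The part of the Cd3d and Cd3g falls in the Il7r result was not tested. Markers of macrophage and neutrophil, dendritic, NK and CD8 T, and erythroid and platelet cells also gave probes that passed, and none of these was called. The 6 tested erythroid and platelet markers had ratios below 0 (median -0.09). Between 1.93% and 8.96% of spots per array were marked as outliers, most on replicates 2 and 6.

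Over 6 arrays, with the dye effect removed, the ratios most like those of Ccr7 were Tbce (r = 0.999) and Slc13a5 (r = 0.996). For S1pr4 they were Rrp1b and Saal1, for Dapl1 they were Dleu7 and Fbxo22, and for Igfbp4 they were Tbx15 and Ier2. Between 180 and 206 of 17201 genes passed r = 0.95 for each, so many genes reach such values over 6 arrays. Il7r and S1pr1 were not ranked, as they were measured on fewer than 6 arrays.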

How the data were processed

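Spot intensity values were deposited by the authors as scanner tables from Agilent Feature Extraction 9.5.1.1, on mm9, per the file headers. The authors also deposited a table of log10 ratios, which equals the scanner software's log ratio with the sign turned where VIP was in Cy3 (largest difference 4.8e-06), and it served as an alternative. Mean signal and median local background were corrected with normexp (offset 50), then loess within arrays, in limma 3.58.1 (R 4.3.3). Control and outlier spots were left out. A probe was kept if well above background on at least 3 of 6 arrays in the channel of either treatment and if each dye orientation had at least 2 measured arrays (27454 probes). Each gene took its probe of highest intensity, and 19225 genes were tested with a dye term for each probe, 2-sided. Pairing comes from the shared array. Levels are per channel after loess and Aquantile. Gene symbols were updated through RefSeq accessions (60.3% of probes). With 6 arrays, precision is limited by their number. The genes and lists were chosen with earlier results of these data known. Named genes are all members, the called genes of each list (or the 2 of lowest p) and the 2 most similar genes. Il2rg, Jak1, Jak3, Stat5a, Stat5b, Foxo1, Runx1, Gabpa, Gfi1, Ets1, Klf2, Cd69, Lef1, Tcf7, Cd44, Cd3d, Cd3g and Tns4 were added after values were seen. Cd3e, Cd4, Btla and Cd27 were added in the same way. Alternatives covered background, normalization, dye and slide terms, filters, outlier spots, probe choice, pairing and each replicate left out. The result of 1 listed gene is not reported here, and the list counts and medians leave it out.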

Additional observations from a re-analysis of the deposited data

Results flagged for a closer look

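In 27 groups of 4 to 10 samples checked for 1 sample far from the rest, 2 stood out, and chance marks about 1 in 20 groups. The ratio of Il7r probe 2 on replicate 4 was -0.18, with a gap to its nearest neighbour of 0.659 of the whole range over 6 arrays. The VIP-treated level of Il7r probe 3 on replicate 4 was 7.56 on the log2 scale, with a gap of 0.713 of the range. Both are on the same array.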

How the results depend on the processing

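Il7r was not called with the scanner software's processed signals (-0.63), the authors' deposited table (-0.63) or no pairing of the 12 channels (-0.63, limma adjusted p = 0.729), and left-out replicates gave -0.70 to -0.58. Ccr7 was not called with those same 3 settings (0.31, 0.31 and 0.29), median centring (0.24), no dye term (0.29), outlier spots kept (0.29) or an offset of 10 (0.29, chosen after seeing the data), and left-out replicates gave 0.22 to 0.35. S1pr4 gave -0.11 to 0.01 with a replicate left out, with the sign turned without replicate 2 (0.012, against -0.04). The cause was not tested. Called genes, 593 in all with 55.6% higher, numbered 38 with the processed signals (76.3% higher), 41 with the deposited table (75.6%), 308 with median centring (68.2%), 124 without a dye term (70.2%), 286 with an offset of 10, 4 without pairing (75.0%), 734 with slide as a block (49.7%), and 254 to 498 with a replicate left out. Of the 11 called list genes other than members, all kept their sign under every setting; none was called with the processed signals, the deposited table or no pairing, 3 were called without a dye term, and 6 each with median centring, an offset of 10 and without replicate 5. The number of arrays and the signal over background limit what could be seen: Il7r probe 3, dim on these arrays, changed size with the background setting, and spots marked as outliers left S1pr1 without a test.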
